A study of Mus musculus with 8 samples.

Results

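The transcripts described here encode 8 large SET domain proteins of the MLL and SET1 group and their relative Setd2: Kmt2a, Kmt2b, Kmt2c, Kmt2d, Kmt2e, Setd1a, Setd1b and Setd2. They were taken by name from the 55450 genes of the count files. The family was picked because Setd1b was among the largest falls in the hepatocytes given selenite. The change of these genes with selenite is therefore given as a description, without a test. All 8 were among the 15468 genes with at least 80 reads summed over the 8 libraries.

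The cells were primary hepatocytes from the livers of C57BL/6 mice at 8 weeks of age. WT cells carried the loxP-flanked allele alone, Slc39a8(F/F). LSKO cells also carried a Cre recombinase under the albumin promoter, Alb-cre(+/+);Slc39a8(F/F), which targets the gene in hepatocytes. The paper describes ZIP8 activity in LSKO hepatocytes as decreased. Slc39a8 encodes ZIP8, a membrane importer of divalent metals and selenite, and its floxed allele was shared by all groups. There were 2 untreated WT libraries, 2 untreated LSKO libraries and 1 library each of LSKO cells given 2 µM MnCl2, FeCl2, Sodium Selenite or ZnCl2 for 24 h in serum-free medium with dexamethasone. The sources do not say whether replicate libraries came from separate animals, so p-values measure only the spread between these libraries, which may be technical.

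Methylation of lysine 4 on histone H3 marks promoters and enhancers that are in use. SETD1A and SETD1B place much of the trimethyl mark at active promoters, KMT2A and KMT2B act at selected promoters, and KMT2C and KMT2D place the monomethyl mark at enhancers. Each works in a COMPASS complex with WDR5, RBBP5, ASH2L and DPY30. KMT2E carries a SET domain but is not known as an active methyltransferase, and SETD2 trimethylates lysine 36 of histone H3 along transcribed genes. The name MLL and SET1 thus covers 6 lysine 4 methyltransferases, KMT2E and a lysine 36 methyltransferase.

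Genes received 19943899 to 27731054 reads per library. These were 39.3% to 42.1% of all counted lines in 7 libraries and 72.2% in the manganese library, where 4.48% of lines fell outside genes against 42.3% to 45.6% elsewhere. Reads that failed to align made up 8.79% to 10.0% in the untreated LSKO and manganese libraries and 4.12% to 4.94% in the other 5. The count of reads dropped for poor mapping quality was 0 in each LSKO control, 62 with manganese and 592678 to 680199 in the other 5. These 2 measures split the libraries the same way, and the split cannot be told apart from treatment or genotype where LSKO is set against WT, iron, selenite or zinc. Hepatocyte markers (Alb, Apoa1, Ttr, Serpina1a, Cps1 and Fgb) summed to 19300 to 50000 normalized CPM (reads scaled by library size), Kupffer cell markers to 188 to 468, endothelial markers to 76.5 to 183, stellate cell markers to 5.58 to 29.2 and cholangiocyte markers to 14.3 to 25.4. Fewer cells of a type and less RNA per cell cannot be told apart in such libraries.

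The 8 genes make some of the longest messenger RNAs in the cell. Their representative transcripts (GENCODE M21, GRCm38) ran from 6.49 kb for Setd1a to 19.8 kb for Kmt2d, and all 8 were in the longest 10% of tested genes, which began at 6.20 kb against a median of 2.71 kb. GC content varied widely among them. It was 59.1% in Kmt2b, 59.0% in Setd1b, 58.4% in Kmt2d and 57.0% in Setd1a, then 50.6% in Kmt2a, and 47.6% in Kmt2c, 45.9% in Kmt2e and 44.3% in Setd2, with a median of 49.8% over tested genes. At the third positions of codons the spread was wider, from 37.3% GC in Setd2, 39.4% in Kmt2e and 39.8% in Kmt2c to 59.9% in Kmt2d and 69.5% in Setd1b.

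Kmt2a lies at chr9:44803355-44881296 on the minus strand, and Kmt2b at chr7:30568858-30588726 on the minus strand. Kmt2c lies at chr5:25271798-25498783 on the minus strand, Kmt2d at chr15:98831669-98871204 on the minus strand and Kmt2e at chr5:23434441-23504235 on the plus strand. Setd1a lies at chr7:127776670-127800122, Setd1b at chr5:123142193-123168629 and Setd2 at chr9:110532597-110618633, all on the plus strand. Setd1a shares 51.8% of its exon length with Gm49388 on the same strand, so reads in that part could not be assigned to either gene, and Gm49388 had 0 reads in all 8 libraries. Kmt2e shares 9.31% of its exon length with Srpk2 on the opposite strand, and the other members share less.

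The catalytic part of these proteins shows how alike the genes are in sequence. The coding strand is given below from GENCODE M21 transcripts (GRCm38) over 36 bases around the SET domain motif of asparagine, histidine, any residue and cysteine, whose 4 codons are in capitals. The motif was not found in Kmt2e. The windows of Kmt2c, Kmt2d, Setd1a and Setd1b cross an exon junction, so their genomic span holds an intron.
Kmt2a, chr9:44808073-44808108, minus strand, exon 36: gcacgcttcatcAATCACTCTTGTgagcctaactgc
Kmt2b, chr7:30569332-30569367, minus strand, exon 37: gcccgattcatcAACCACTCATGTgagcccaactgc
Kmt2c, chr5:25275706-25275904, minus strand, exons 57 and 58: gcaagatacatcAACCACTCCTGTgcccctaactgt
Kmt2d, chr15:98834794-98834912, minus strand, exons 53 and 54: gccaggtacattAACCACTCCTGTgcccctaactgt
Setd1a, chr7:127799202-127799314, plus strand, exons 18 and 19: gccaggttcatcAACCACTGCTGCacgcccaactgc
Setd1b, chr5:123163682-123165841, plus strand, exons 16 and 17: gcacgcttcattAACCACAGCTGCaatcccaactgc
Setd2, chr9:110562967-110563002, plus strand, exon 7: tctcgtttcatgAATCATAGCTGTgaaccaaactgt
Kmt2c and Kmt2d had the same base at 33 of 36 positions, Kmt2a and Kmt2b at 31, Setd1a and Setd1b at 29, and Setd1a and Setd2 at 22. The window was 61.1% GC in Setd1a and 38.9% in Setd2. Over whole coding sequences the longest run shared by 2 members was 37 bases, in Kmt2c and Kmt2d, and no stretch of 50 bases was shared.

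Promoters were listed in RefSeq (GRCm38.p6) for 5 of the 8 genes: Kmt2a, Kmt2c, Kmt2d, Setd1a and Setd2. Kmt2d and Setd2 are shown because one had the largest and the other the smallest change with selenite among these 5. The 250 bases before the start site are on the coding strand, with GC boxes (GGGCGG, or CCGCCC on the other strand) in capitals.
Kmt2d, chr15:98871206-98871455, minus strand: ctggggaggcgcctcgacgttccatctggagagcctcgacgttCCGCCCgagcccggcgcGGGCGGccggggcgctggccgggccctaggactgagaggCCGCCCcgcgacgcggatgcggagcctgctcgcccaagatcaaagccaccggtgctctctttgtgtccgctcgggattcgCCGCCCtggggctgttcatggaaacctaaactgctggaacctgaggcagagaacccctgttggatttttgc
Setd2, chr9:110532347-110532596, plus strand: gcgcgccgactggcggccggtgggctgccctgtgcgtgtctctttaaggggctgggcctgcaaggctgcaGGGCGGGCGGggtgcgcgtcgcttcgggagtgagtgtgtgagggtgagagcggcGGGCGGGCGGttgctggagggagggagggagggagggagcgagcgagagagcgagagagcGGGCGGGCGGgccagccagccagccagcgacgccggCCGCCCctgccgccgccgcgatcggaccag
GC boxes, overlapping ones included, numbered 12 in Kmt2c, 7 in Setd2, 4 in Kmt2a, 4 in Kmt2d and 0 in Setd1a. Of 32851 such stretches of 250 bases, 1 a promoter, 32.7% held at least one. The 5 stretches were 67.6% (Kmt2d) to 91.6% (Kmt2c) GC against a median of 52.4% over all, so such matches are likelier in them. The Setd1a stretch, chr7:127777139-127777388, lies inside the gene span given above. A match of letters is not a site of binding.

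In untreated cells Setd2 was the most abundant of the 8 transcripts and Kmt2c and Setd1b were the least. Per kilobase of exon not shared with another gene on the strand, WT cells held 6.57 ± 0.50 normalized CPM of Setd2 (SD, n = 2), 4.22 ± 0.67 of Setd1a, 2.80 ± 0.23 of Kmt2e, 2.77 ± 0.52 of Kmt2b, 2.39 ± 0.54 of Kmt2a, 1.44 ± 0.39 of Kmt2d, 0.936 ± 0.144 of Setd1b and 0.841 ± 0.079 of Kmt2c. The WT libraries of Kmt2e, Kmt2b and Kmt2a overlapped in level, as did those of Setd1b and Kmt2c, while the other neighbours in this order did not overlap. LSKO cells held 5.87 ± 0.38 per kilobase for Setd2 and 0.795 ± 0.150 for Setd1b.

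Selenite gave the lowest level of each of the 8 genes among the 8 libraries. Setd1b, one of the 2 SET1 enzymes, had 290 and 287 reads in WT, 247 and 226 in LSKO, 320 with manganese, 152 with iron, 181 with zinc and 50 with selenite. These were 10.1, 12.5, 10.9, 8.31, 13.6, 7.58, 7.38 and 2.47 normalized CPM in the same order. The selenite library stood alone at the bottom, with the iron and zinc libraries next. Its log2 fold change against untreated LSKO was -1.95, a level of 0.259 times the control, and it ranked 14 of 1146 among called falls of genes averaging 100 or more normalized counts. Among all 15468 genes tested its fold change ranked 293 from the lowest, and 821 once length and GC content were corrected for. A gene was called at an adjusted p below 0.05 and an absolute log2 fold change above 0.5.

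Kmt2d, the enhancer enzyme with the longest transcript, had 23.3 and 34.2 normalized CPM in WT, 31.1 and 26.4 in LSKO, 34.3 with manganese, 29.8 with iron, 24.6 with zinc and 10.2 with selenite. Its log2 fold change with selenite was -1.49. Kmt2c, its closest relative in sequence, had 15.9 and 18.2 in WT, 16.8 and 14.2 in LSKO, 16.1 with manganese, 15.6 with iron, 16.0 with zinc and 8.35 with selenite, a log2 fold change of -0.89. For both genes the 7 libraries without selenite lay in one band, and selenite fell outside it.

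Kmt2b, which acts at selected promoters, had 23.1 and 30.1 normalized CPM in WT, 29.0 and 25.8 in LSKO, 26.1 with manganese, 34.9 with iron, 21 with zinc and 11.5 with selenite. Its log2 fold change with selenite was -1.25, against -1.09 for Kmt2a, the founding MLL gene of leukemia translocations. Kmt2a had 33.5 and 46.1 in WT, 38.8 and 32.6 in LSKO, 32 with manganese, 32.2 with iron, 28 with zinc and 16.8 with selenite. Iron gave the highest Kmt2b of the 8 libraries and zinc the lowest without selenite.

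Setd1a, the partner of Setd1b, had 12.3 and 15.4 normalized CPM in WT, 11.8 and 10.9 in LSKO, 12.9 with manganese, 17.7 with iron, 11.9 with zinc and 5.68 with selenite, a log2 fold change of -0.996. Kmt2e changed by -0.68, from 30.2 and 30.6 in LSKO to 19.0. Setd2, the lysine 36 enzyme, had 66.9 and 74.5 in WT, 66.0 and 60.3 in LSKO, 64.1 with manganese, 77.4 with iron, 60.9 with zinc and 45.9 with selenite. Its log2 fold change of -0.46 was the smallest of the 8 and under the size limit of 0.5. It passed that limit without WT replicate 1 (-0.50), WT replicate 2 (-0.50) or LSKO replicate 2 (-0.56). The 8 genes together took 5326 and 5685 reads in LSKO and 2426 with selenite.

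**Figure D1:**
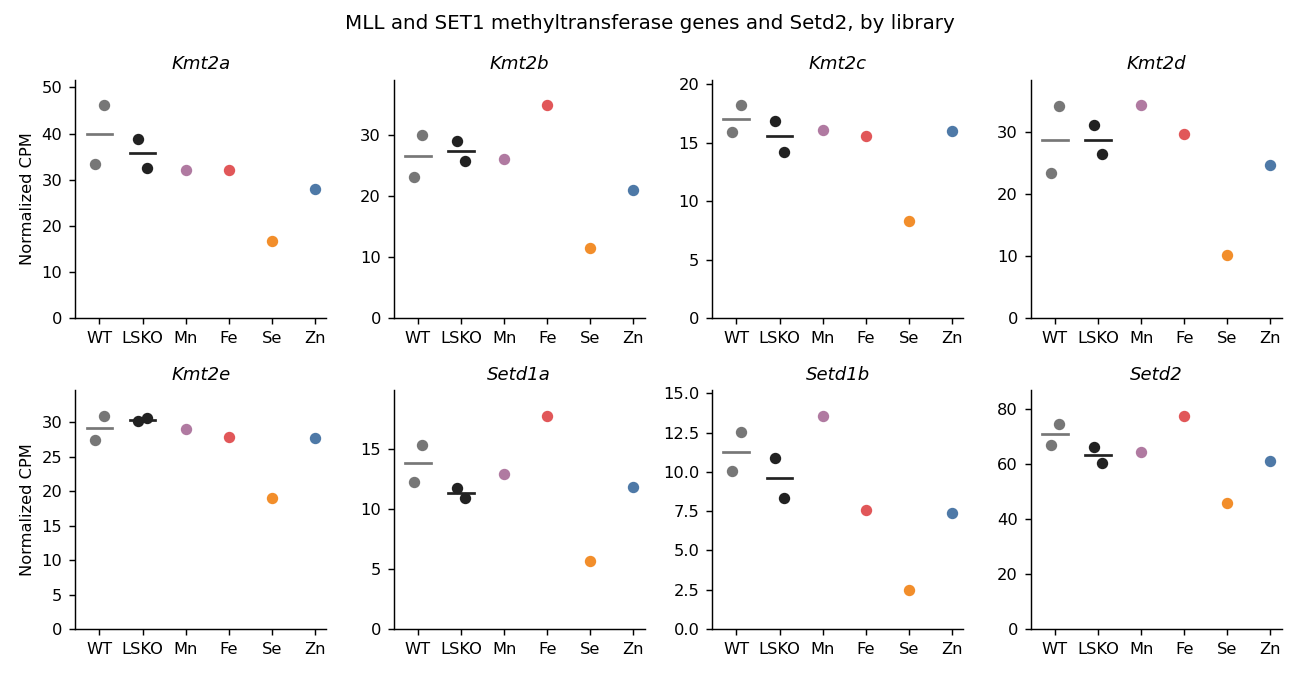
Normalized CPM (linear axis from 0) of the 8 genes, 1 panel each, in untreated WT and LSKO cells and in LSKO cells given manganese, iron, selenite or zinc. Points are libraries and bars are means of 2. The selenite point is the lowest in every panel, at 2.47 for Setd1b and 45.9 for Setd2.

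With selenite, 7 of the 8 genes were called lower, beside 9.67% of all genes tested, 25.7% of the 1547 genes in the longest 10% and 52.9% of the 505 of those with GC content at or above the median. The family was chosen on this contrast, and nothing is read from its count. The median log2 fold change was -1.04 over the 8 genes, -0.33 over the longest 10%, -0.68 over the long GC-rich genes and -0.01 over all genes. Among the 8, the 4 with the highest GC content had -0.996 to -1.95 and the 3 with the lowest had -0.46 to -0.89. Kmt2a, between them at 50.6% GC, had -1.09, a larger fall than that of Setd1a at 57.0% (-0.996).

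A correction of each library for transcript length and GC content lowered the members called from 7 to 1, beside 4.49% of all genes, and since the contrast chose the family nothing is read from this count either. Setd1b, the one called, had -1.16. The other 7 then had -0.51 for Kmt2d, -0.47 for Kmt2b, -0.47 for Kmt2e, -0.46 for Kmt2a, -0.41 for Kmt2c, -0.39 for Setd1a and -0.25 for Setd2, all below 0. The longest 10% of genes had a corrected median of -0.02, a value that the fit of the correction itself largely fixes. The 8 members had one of -0.46. Since the contrast chose the family, nothing is read from the gap between these medians. In the selenite library hepatocyte markers summed to 50000 normalized CPM, the highest of the 8 libraries. Against untreated LSKO edgeR called 4 of 6 hepatocyte and 2 of 7 Kupffer cell markers higher, where 7.89% of all genes were. It called 3 of 6 endothelial and 3 of 6 stellate cell markers lower, where 9.67% were. DESeq2 called 3 of 6 hepatocyte and 2 of 7 Kupffer cell markers higher. It called 3 of 6 endothelial and 1 of 6 stellate cell markers lower. Their part in the change of the 8 genes was not tested.

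**Figure D2:**
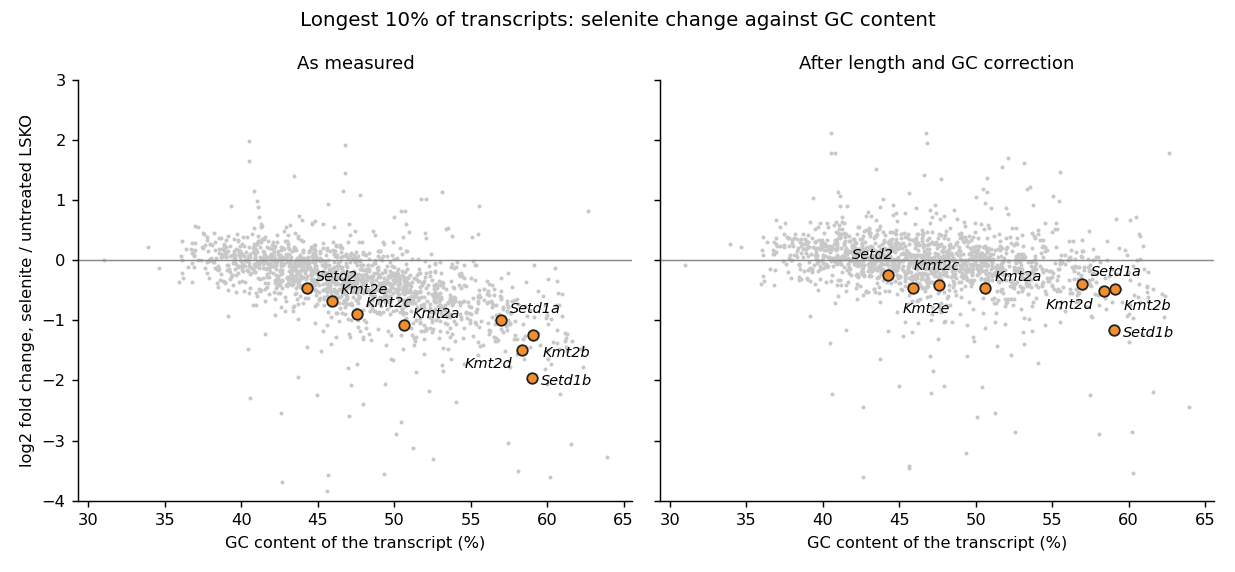
Log2 fold change with selenite against untreated LSKO (vertical axis) and transcript GC content in percent (horizontal axis) for the 1547 genes of the longest 10%, as measured (left) and after the length and GC correction (right). Orange points are the 8 genes, grey points the rest, and 5 genes lie outside the axis. As measured, the grey points descend with GC content and the orange points run from -0.46 for Setd2 to -1.95 for Setd1b. After the correction 7 orange points lie between -0.25 and -0.51 and Setd1b lies at -1.16.

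Selenite was also set against the iron and zinc libraries, which fall on its side of that split and received another salt at the same dose and time. All 8 genes were lower by the same call, beside 8.35% of all genes tested and 23.5% of the longest 10%, again without a test since the selenite library had chosen the family. The log2 fold changes were -1.60 for Setd1b, -1.40 for Kmt2d, -1.35 for Setd1a, -1.23 for Kmt2b, -0.92 for Kmt2c, -0.84 for Kmt2a, -0.58 for Setd2 and -0.55 for Kmt2e. After the length and GC correction Setd1a alone was called, at -0.77, while Setd1b had -0.85 and was not called. Here edgeR called 2 of 6 endothelial and 2 of 6 stellate cell markers higher and 0 of either lower. It also called 5 of 6 hepatocyte and 2 of 7 Kupffer cell markers higher, where 7.53% of all genes were. The part of these markers in the change of the 8 genes was not tested.

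Iron was followed by a higher level of one member. Setd1a, at 17.7 normalized CPM with iron against 11.8 and 10.9 in untreated LSKO, had a log2 fold change of 0.65 (SE 0.178, 95% interval 0.25 to 1.04, adjusted p = 0.0396 by edgeR's quasi-likelihood test), and it was 1 of 8 members called higher where 3.8% of all genes were. The iron library lay above both WT libraries as well, at 12.3 and 15.4. The comparison with untreated LSKO shares its control libraries with the selenite contrast that chose the family. Setd2 had 0.29 (adjusted p = 0.101), Kmt2b 0.35 (adjusted p = 0.185) and Setd1b -0.34 (adjusted p = 0.377). The Setd1a call was lost with DESeq2 (0.64, adjusted p = 0.240) and without WT replicate 1 (0.63, adjusted p = 0.0543), WT replicate 2 (0.63, adjusted p = 0.0547) or LSKO replicate 2 (0.58, adjusted p = 0.0558). In the iron library edgeR called 5 of 6 endothelial and 3 of 6 stellate cell markers lower than in untreated LSKO, where 4.89% of all genes were, and their part in the Setd1a value was not tested.

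Zinc and manganese gave no member past the threshold of edgeR's quasi-likelihood test, where 4.45% of all genes with zinc and 17.2% with manganese were called. Among the longest 10% of transcripts 0.84% were called lower with zinc and 4.85% with manganese. The manganese library had 72.2% of counted lines in genes against 39.3% to 42.1% elsewhere, which cannot be told apart from the treatment. At an unadjusted p under 0.05 there was 1 lower member with zinc, Kmt2b, and 1 higher with manganese, Setd1b, and DESeq2 called 0 in both. Kmt2b with zinc had a log2 fold change of -0.38 (95% interval -0.76 to -0.01, adjusted p = 0.251), and Setd1b with zinc had -0.37 (-0.88 to 0.13, adjusted p = 0.416). Setd1b with manganese had 0.50 (0.03 to 0.98, adjusted p = 0.138). It was called higher without LSKO replicate 1, at 0.70 (adjusted p = 0.0230). Each of these comparisons shares the 2 untreated LSKO libraries with the selenite contrast that chose the family.

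The liver knockout of Slc39a8 without any treatment gave 0 called members by edgeR, where 10.4% of all genes were called. It gave 0 at an unadjusted p under 0.05 and 0 by DESeq2. Log2 fold changes of LSKO against WT ran from -0.28 for Setd1a (95% interval -0.61 to 0.05) to 0.06 for Kmt2e (-0.17 to 0.28). The intervals of all 8 genes held 0. This comparison shares the untreated LSKO libraries with the selenite contrast that chose the family. Hepatocyte markers were called higher in LSKO at 6 of 6, where 6.74% of all genes were.

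The fold change of the iron and zinc mean against WT compares no library of the selenite contrast, and it combines the genotype with the treatment. Its SE and p do rest in part on the spread of the untreated LSKO pair, which the selenite contrast also used. By edgeR 0 members were called where 9.79% of all genes were, 2 were lower at an unadjusted p under 0.05, and DESeq2 called 0. Those 2 were Setd1b, at a log2 fold change of -0.59 (SE 0.184, 95% interval -0.997 to -0.18, adjusted p = 0.0556), and Kmt2a, at -0.40 (SE 0.148, interval -0.73 to -0.08, adjusted p = 0.0966). After the length and GC correction Setd1b had -0.47 and Kmt2a -0.22, and neither was called. In untreated LSKO against WT Setd1b had -0.24. With iron and zinc Setd1b, at 7.58 and 7.38 normalized CPM, did not overlap the WT libraries at 10.1 and 12.5. It was called without LSKO replicate 1 (-0.58) or LSKO replicate 2 (-0.57). In the same comparison edgeR called 6 of 6 endothelial and 4 of 6 stellate cell markers lower, where 4.3% of all genes were, and 6 of 6 hepatocyte markers higher, where 5.5% were, and their part in these values was not tested.

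The treated libraries were also set against each other, which leaves the LSKO controls out of the difference. Setd1b was lower with iron than with manganese (log2 difference -0.84, adjusted p = 0.0363 by edgeR, where 6.11% of all genes were called lower) and lower with zinc than with manganese (-0.88, adjusted p = 0.0304, where 3.49% were). With manganese 72.2% of counted lines lay in genes, against 42.1% with iron and 41.9% with zinc. Unaligned reads made up 8.79% with manganese, 4.94% with iron and 4.85% with zinc. Neither gap can be told apart from the treatments. Kmt2b was higher with iron than with zinc (0.73, adjusted p = 0.0366 by edgeR, where 3.23% of all genes were called higher). DESeq2 called 0 of the 3, and the Kmt2b call was lost without WT replicate 1 (0.71) or WT replicate 2 (0.71) and after correction for length and GC content (0.43).

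**Figure D3:**
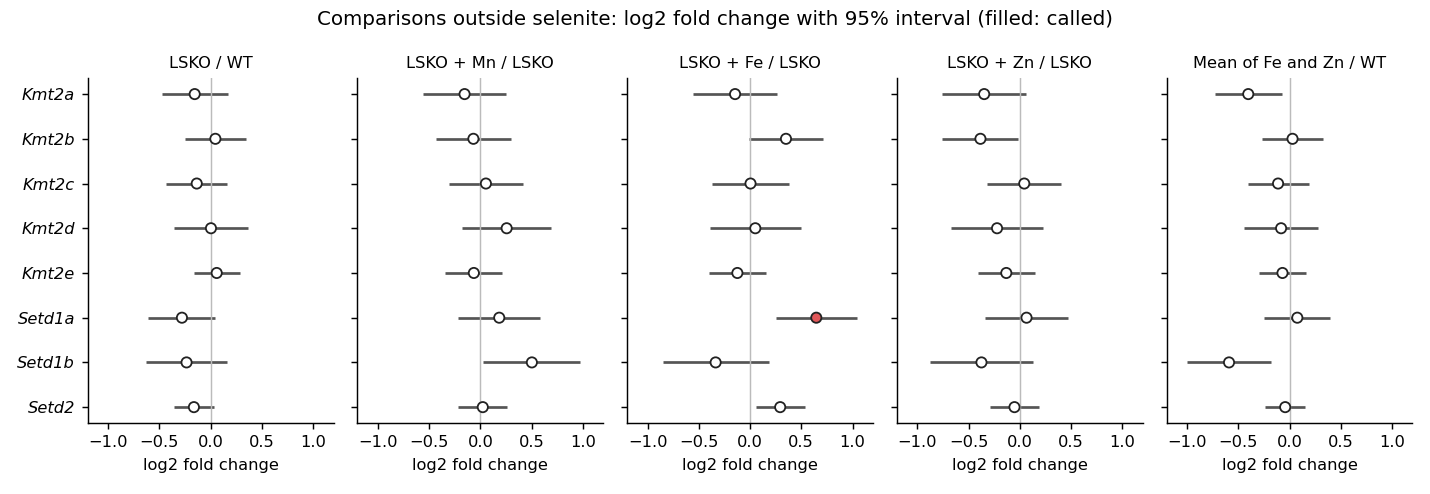
Log2 fold changes (horizontal axis) with 95% intervals of the 8 genes in the 5 comparisons without the selenite library, 1 panel each. The filled point, Setd1a with iron at 0.65, is the one called. Setd1b is the leftmost point in the panel of iron and zinc against WT, at -0.59.

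Pairs of close relatives were compared within each library, where depth and scaling cancel. Effects of transcript length and GC content do not cancel, and the paired genes differ in both. Setd1b took 45.1% and 44.9% of the reads of Setd1a and Setd1b in WT, 48.1% and 43.2% in LSKO, 51.3% with manganese, 38.3% with zinc (95% exact binomial interval 33.9% to 42.9%), 29.9% with iron (26% to 34.1%) and 30.3% with selenite (23.4% to 37.9%). The iron interval lay below those of the 4 untreated libraries, the lowest of which began at 38.9%, and the selenite share is given as a description. These intervals cover counting error only, and no replicate exists for either treatment. With iron the share was low while Setd1a was high, and with selenite both genes were low.

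Kmt2b took 39.5% to 44.2% of the reads of Kmt2a and Kmt2b in the 4 untreated libraries, 52.0% with iron (49.3% to 54.7%) and 40.7% with selenite (36.6% to 44.8%). Kmt2d took 59.4% to 65.3% of the reads of Kmt2c and Kmt2d in untreated cells, 68.1% with manganese and 65.7% with iron. It took 60.6% with zinc and 55.1% with selenite (49.9% to 60.2%). After the length and GC correction the log2 fold changes with selenite were -0.51 for Kmt2d and -0.41 for Kmt2c, against -1.49 and -0.89 before it.

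**Figure D4:**
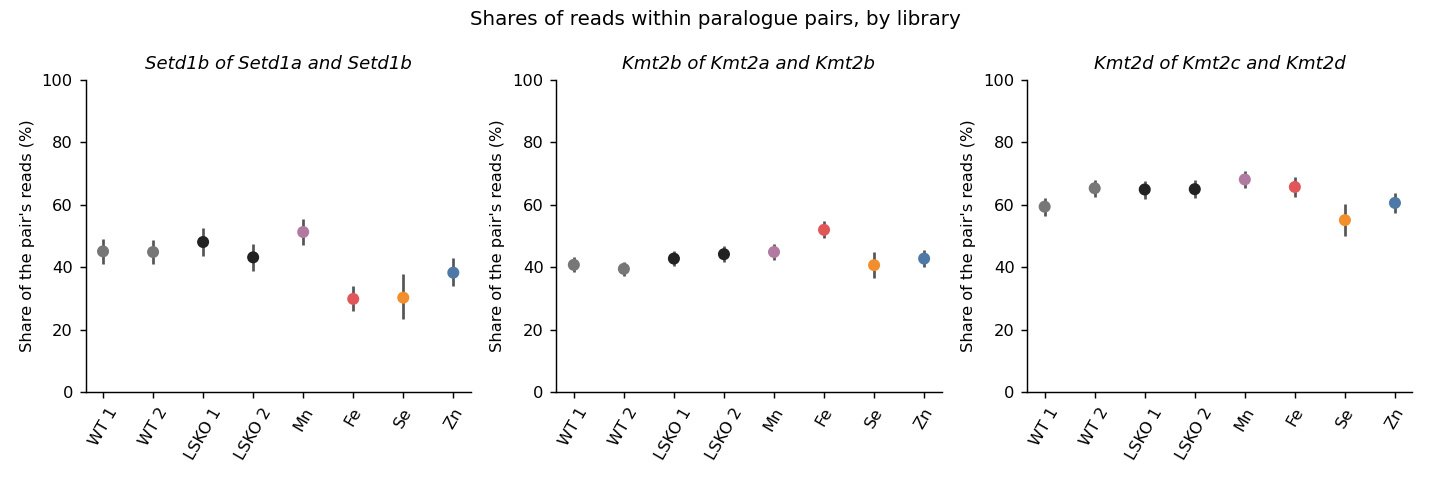
Share in percent (axis from 0 to 100) of the reads of 3 pairs of related genes that fell in the named member, in each of the 8 libraries, with 95% exact binomial intervals that cover counting error only. The share of Setd1b was 29.9% with iron and 30.3% with selenite against 43.2% to 48.1% in the 4 untreated libraries. The share of Kmt2b was highest with iron, at 52.0%.

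Among the subunits that work with these enzymes, 2 of 13 tested COMPASS members were lower with selenite by edgeR: Hcfc1 (log2 fold change -0.95), a host cell factor shared by several chromatin complexes, and Ncoa6 (-0.70), a partner of KMT2C and KMT2D, beside 9.67% of all genes and 25.7% of the longest 10%. Their median was -0.17. Of 9 genes of the PAF1 complex and of histone H2B ubiquitination, which precedes lysine 4 methylation, 0 were called by edgeR or by DESeq2, an unadjusted p under 0.05 was reached by 1 higher and 1 lower gene, and the median was 0.12.

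Demethylases remove methyl groups from lysine 4 and lysine 36. Of 10 tested, 4 were lower with selenite: Kdm4a (-0.57), Kdm5c (-0.56), Kdm4b (-0.55) and Kdm5b (-0.55), with a median of -0.44. In the contrast as a whole 9.67% of genes were called lower. Of the long GC-rich ones 52.9% were, a group to which Kdm5c alone of these 4 belonged. Of 26 other SET domain methyltransferases, 4 were lower: Setd7 (-0.71), Kmt5c (-0.65), Prdm2 (-0.62) and Ash1l (-0.61), and 1 was higher, Smyd3 (0.60), beside 9.67% of all genes lower and 7.89% higher. Their median was -0.18. DESeq2 called 3 of the 10 demethylases lower, and of the 26 other SET domain genes it called 3 lower and 0 higher. After correction for length and GC content 0 genes of the COMPASS, PAF1 and demethylase lists were called by edgeR, and of the other SET domain genes 1 was higher and 0 were lower.

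**Figure D5:**
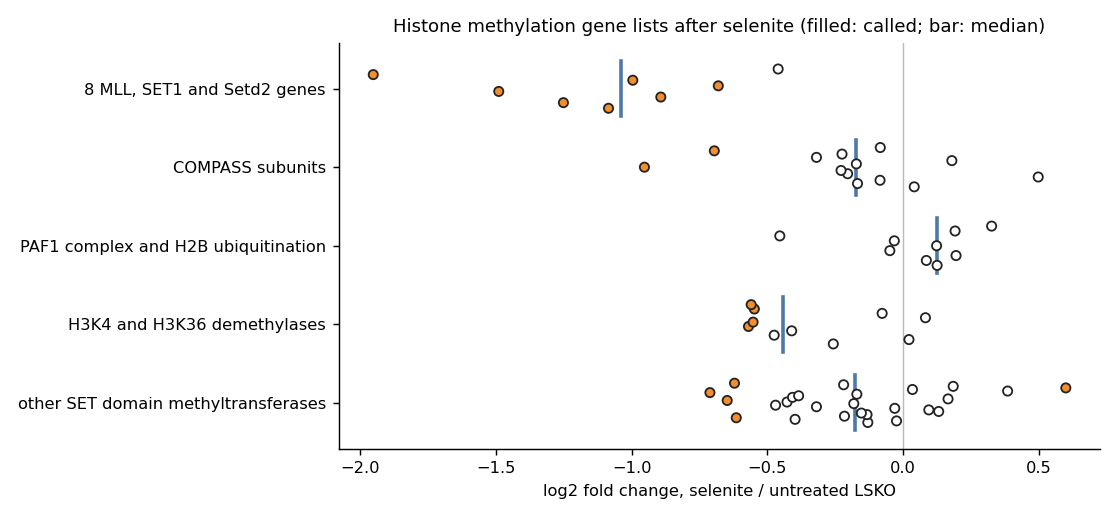
Log2 fold change with selenite against untreated LSKO (horizontal axis) for the 8 genes and 4 lists of related genes, 1 row each. Points are genes, filled where called, and bars are medians. The medians were -1.04 for the 8 genes, -0.17 for COMPASS subunits, 0.12 for the PAF1 list, -0.44 for demethylases and -0.18 for other SET domain genes.

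In the comparisons without selenite few genes of these lists were called. With manganese Psip1, a chromatin reader that tethers MLL complexes, had -0.58, Suv39h1, a lysine 9 methyltransferase, had -1.04 and Smyd2 had -0.77. In that comparison 15.1% of all genes were called lower and 2.09% higher. The manganese library had 72.2% of counted lines in genes against 39.3% to 42.1% elsewhere, which cannot be told apart from the treatment. In LSKO against WT Setdb2, another lysine 9 enzyme, had 0.55, where 6.74% of all genes were called higher. DESeq2 did not call it. With iron and with zinc edgeR and DESeq2 each called 0 genes of the 4 lists. At an unadjusted p under 0.05 iron gave 4 higher and 1 lower of the COMPASS subunits, 1 higher of the PAF1 list, 1 higher of the demethylases and 3 higher and 2 lower of the other SET domain genes. Zinc gave 1 lower demethylase and 2 lower SET domain genes by the same measure, and 0 in the other lists.

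Genes whose profile over the 8 libraries lay close to that of Setd1b, by root mean square difference of centred log2 CPM among 12429 genes, were the plexin Plxnd1 (0.184, the closest), Sipa1l3 (0.223), the receptor phosphatase Ptprm (0.262) and the adhesion molecule Bcam (0.264). Their GC content ran from 50.1% to 60.8%. Closest to the mean of the 8 genes were Polr2a (0.0605), the largest subunit of RNA polymerase II, Zbtb34 (0.0609), Wdfy3 (0.0611), Ep400 (0.0634), a chromatin remodeller, and Git1 (0.0648). Among the members themselves Kmt2e and Setd2 were the closest pair (0.138) and Setd1b and Setd2 the farthest (0.558). The selenite library enters these distances, so they describe the same change that chose the family.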

How the data were processed

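RNA from the 8 hepatocyte libraries was sequenced on an Illumina HiSeq by the study. The deposited values were whole read counts per Ensembl gene, which the authors made with Trimmomatic, HISAT2 on GRCm38 and HTSeq. No source used here gives the annotation release or the strand setting, and intronic or unassigned reads are in no gene count. All 55450 identifiers matched GENCODE M21. Depth is given at the start of the results.

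Counts were fitted over 6 groups and 8 libraries with edgeR 4.0.16 in R 4.3.3 (TMM scaling, quasi-likelihood test, Benjamini-Hochberg adjustment over 15468 genes with at least 80 reads in total). The 4 treated groups have 1 library each and borrow the spread of the untreated pairs (2 residual degrees of freedom, biological coefficient of variation 8.29%). A gene was called at an adjusted p below 0.05 and an absolute log2 fold change above 0.5. The correction for transcript length and GC content used natural splines (4 degrees of freedom) per library. DESeq2 1.42.0, other filters and scalings, leaving out each replicate, leaving out the manganese library, a replicate block, TMM from the longest 20% of transcripts (chosen after seeing the data) and the differences between treatments (also added then) were further settings. Scripts were tested on simulated data. Members, lists and tests were chosen with earlier results of these data known. The text names all 8 members, the called genes of 4 fixed lists and the 5 nearest profiles, of which 1 is not reported here.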

Additional observations from a re-analysis of the deposited data

Results flagged for a closer look

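In 3 instances the effects of 2 treatments on a member differed by edgeR's quasi-likelihood test of the difference itself, in which the shared LSKO controls cancel. Setd1b was lower with iron than with manganese by a log2 difference of -0.839 (SE 0.260, adjusted p = 0.0363, where 6.11% of all genes were called lower) and lower with zinc than with manganese by -0.877 (SE 0.257, adjusted p = 0.0304, where 3.49% were). Its levels were 13.6 normalized CPM with manganese, 7.58 with iron and 7.38 with zinc. The manganese library had 72.2% of lines in genes against 39.3% to 42.1% in the other 7, and this cannot be told apart from the treatment. Kmt2b was higher with iron than with zinc by 0.735 (SE 0.191, adjusted p = 0.0366, where 3.23% of all genes were called higher), at 34.9 against 21 normalized CPM. DESeq2 called 0 of the 3, with adjusted p of 0.140, 0.133 and 0.0908 in that order. The Kmt2b call was also lost without WT replicate 1 (0.71, adjusted p = 0.0531), without WT replicate 2 (0.71, adjusted p = 0.0526) and after correcting for length and GC content (0.43, adjusted p = 0.0976). Each treatment has 1 library, which is assumed to vary like the untreated pairs, and 24 such differences were computed over the 8 genes.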

How the results depend on the processing

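The counts of members called moved as follows. With the length and GC correction 1 of 8 was called for selenite against LSKO and 1 for selenite against iron and zinc. DESeq2 called 0 with iron. For iron and zinc against WT 1 member, Setd1b, was called lower with no filter, with filterByExpr and with the replicate block. Leaving out 1 replicate at a time gave 0 to 1 called with manganese, 0 to 1 with iron, 0 to 1 for iron and zinc against WT and 7 to 8 with selenite against LSKO. The replicate numbers did not pair the samples (correlation of deviations -0.0707 over 2 pairs), and the block changed no other call of a member. With TMM from long transcripts 6 members were called for selenite against LSKO. Setd1b rested on 50 reads in the selenite library, each treatment on 1 library, and the LSKO and manganese libraries differ from the rest in unaligned and low-quality reads.

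Log2 fold changes near 0, none of them called, changed sign in some settings. With median-ratio size factors the values were Kmt2c -0.0051 with iron and Kmt2d -0.0025 in LSKO against WT. With DESeq2 the values were Kmt2c -0.0065 with iron and Kmt2d -0.0049 in LSKO against WT. With no filter the values were Kmt2c -0.0011 with iron and Kmt2d -0.016 in LSKO against WT. With filterByExpr the values were Kmt2d -0.010 in LSKO against WT. With length and GC corrected the values were Kmt2c -0.0029 and Kmt2d -0.037 with iron, Kmt2d 0.021 with zinc and Kmt2c 0.051, Kmt2d 0.12, Kmt2e 0.017 and Setd2 0.053 in iron and zinc against WT. With TMM from long transcripts the values were Kmt2c -0.0061 with iron, Setd2 0.0038 with zinc and Kmt2d 0.026, Kmt2e 0.036 and Setd2 0.063 in iron and zinc against WT. Leaving out 1 replicate, the ranges were Kmt2b -0.14 to 0.017, Kmt2c -0.050 to 0.18 and Setd2 -0.027 to 0.090 with manganese. Leaving out 1 replicate, the ranges were Kmt2c -0.12 to 0.10 and Kmt2d -0.074 to 0.15 with iron. Leaving out 1 replicate, the ranges were Kmt2c -0.063 to 0.16 and Setd2 -0.10 to 0.011 with zinc. Leaving out 1 replicate, the ranges were Kmt2a -0.35 to 0.11, Kmt2b -0.11 to 0.26, Kmt2d -0.23 to 0.32 and Kmt2e -0.00020 to 0.16 in LSKO against WT. Leaving out 1 replicate, the ranges were Kmt2b -0.14 to 0.24, Kmt2d -0.32 to 0.22, Kmt2e -0.13 to 0.026, Setd1a -0.065 to 0.25 and Setd2 -0.10 to 0.047 in iron and zinc against WT. The cause was not tested.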
